A study of Mus musculus with 12 samples.

Results

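Dopaminergic neurons of the substantia nigra pars compacta (SNpc) and of the neighbouring ventral tegmental area (VTA) were compared for their RNA of glutathione, thioredoxin and superoxide defence enzymes. The genes were taken by name from the count table: glutathione transferases (Gsta, Gstk, Gstm, Gsto, Gstp, Gstt and Gstz), glutathione peroxidases (Gpx), peroxiredoxins (Prdx), glutaredoxins (Glrx), superoxide dismutases (Sod), all symbols starting with Txn, and Mgst1, Mgst2, Mgst3, Cat, Gsr, Gss and Srxn1. This gave 69 of the 23079 genes listed. Both groups came from mice of strain C57BL/6, the labels name no treatment, and the groups differ by label only in region. RNA had been recovered by TRAP, read here as affinity purification of tagged ribosomes from a chosen cell type. Which transgene and promoter were used, how old the mice were and whether animals were pooled is not given in the sources used here.

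Mitochondrial respiration and the breakdown and autoxidation of dopamine produce superoxide and hydrogen peroxide, and midbrain dopaminergic neurons are known for a high oxidant load. Superoxide dismutases turn superoxide into hydrogen peroxide, which catalase, glutathione peroxidases and peroxiredoxins then reduce, and oxidised glutathione and thioredoxin are recycled by reductases that spend NADPH. Glutathione transferases join glutathione to reactive compounds, among them aldehydes made when lipids oxidise. SNpc neurons are the ones that are lost earlier in Parkinson disease, which is the usual reason for comparing these regions.

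Promoter sequences are shown first for 4 genes that carry the largest differences among the well-measured members. Each is the 250 bases before the RefSeq start site on build GRCm38.p6 (mm10), written in the direction of the gene. Capitals mark the letters GGGCGG (the GC box, either strand) and, in Txnip only, also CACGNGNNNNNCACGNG (the carbohydrate response element, either strand). Glrx3 and Mgst3 were the genes with more than a 2-fold higher level in SNpc, and Gpx3 and Txnip were higher in VTA.
Glrx3, chr7:137437323-137437572, plus strand: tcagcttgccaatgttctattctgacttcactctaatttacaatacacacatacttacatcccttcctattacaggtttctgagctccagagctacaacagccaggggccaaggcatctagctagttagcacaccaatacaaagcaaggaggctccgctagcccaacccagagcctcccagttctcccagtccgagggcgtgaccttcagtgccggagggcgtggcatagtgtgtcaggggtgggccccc
Mgst3, chr1:167393842-167394091, minus strand: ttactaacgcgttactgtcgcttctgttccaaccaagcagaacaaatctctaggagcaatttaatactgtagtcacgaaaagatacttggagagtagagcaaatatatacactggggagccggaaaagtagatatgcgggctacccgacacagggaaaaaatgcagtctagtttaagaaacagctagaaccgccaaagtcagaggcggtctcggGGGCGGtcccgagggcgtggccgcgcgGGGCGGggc
Gpx3, chr11:54902604-54902853, plus strand: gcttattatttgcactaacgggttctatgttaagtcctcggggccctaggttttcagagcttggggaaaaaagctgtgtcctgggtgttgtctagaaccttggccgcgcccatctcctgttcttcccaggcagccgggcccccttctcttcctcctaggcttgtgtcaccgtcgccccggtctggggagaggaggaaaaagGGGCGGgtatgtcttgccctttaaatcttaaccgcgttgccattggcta
Txnip, chr3:96557707-96557956, plus strand: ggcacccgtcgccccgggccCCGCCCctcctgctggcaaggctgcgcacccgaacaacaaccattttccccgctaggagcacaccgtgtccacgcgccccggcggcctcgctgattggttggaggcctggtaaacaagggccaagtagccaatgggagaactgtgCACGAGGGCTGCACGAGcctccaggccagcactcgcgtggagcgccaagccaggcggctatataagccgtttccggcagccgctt

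After 2 pairs of columns with identical counts had been counted once each, 5 libraries per region remained, numbered 1, 2, 3, 4 and 6 in SNpc and 1, 2, 4, 5 and 6 in VTA. Total counts ran from 62356964 to 81393907. Levels are CPM, counts scaled to library size with the TMM method (trimmed mean of M values), and all lists of 5 values follow that order of libraries. The summed CPM of 6 dopaminergic markers was 9465 to 13760 in SNpc and 4807 to 7919 in VTA, and all 6 were called higher in SNpc. Astrocyte markers (10 genes) summed to 270.8 to 465.4 CPM in SNpc and 456.2 to 608.8 in VTA, and oligodendrocyte precursor markers (6 genes) to 16.7 to 51.5 and 44.5 to 74.7. The 10 oligodendrocyte markers summed to 277.7 to 1416 CPM in SNpc and 697.6 to 877.5 in VTA, with SNpc library 4 alone at 1416 and the other SNpc libraries at 504.0 or less. In two-sided exact permutation tests on mean log2 CPM, adjusted over 9 lists of markers, dopaminergic markers were higher in SNpc (p = 0.0238) and precursor and glutamatergic markers in VTA (0.0238 each). Astrocyte (0.107), ependymal (0.2), vascular (0.214), microglial (0.244), oligodendrocyte (0.393) and GABAergic markers (0.952) did not pass. No marker was at 0 in all libraries. In these bulk samples, fewer cells of a type and less RNA per cell cannot be told apart. The labels do not tie the libraries to separate animals; the p-values below therefore measure only library-to-library spread, which may be technical.

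The defence genes lay more often on the SNpc side than genes in general. Of the 69, 60 had enough counts to be tested, and 24 of these were higher in SNpc, 4 were higher in VTA and 32 did not pass (edgeR quasi-likelihood F test, Benjamini-Hochberg adjusted p under 0.05 over all 15685 genes tested). The 24 are 40.0% of the tested members, against 17.8% of all genes tested, and the 4 are 6.67%, against 20.4%. The median log2 fold change of the tested members (SNpc minus VTA, as throughout) was 0.29, against -0.04 over all genes, and 43 of the 60 values lay above 0, where 47.5% of all genes did. All 24 were among the 41 tested members with a mean of 10 CPM or more, and of all genes at that level 27.0% were higher in SNpc and 24.8% in VTA. Most differences were small: only Glrx3 and Mgst3 passed the test with a 2-fold or larger excess in SNpc, and Gpx3, Txnip and Gsta3 with one in VTA. Summed over all 69 genes, the level was 4446 ± 339 CPM over the 5 SNpc libraries and 3393 ± 417 over the 5 of VTA (mean ± SD), of which Sod1 made up the largest share.

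The excess was smaller after a joint correction for transcript length and GC content, whose separate parts were not tested. The tested members are short, with a median length of 2049 bases for the longest annotated transcript against 3426.5 for all genes. When a trend in length and GC content was removed from each library, 13 members were higher in SNpc (21.7%, against 15.1% of all genes) and 3 in VTA (against 16.7% of all genes), and the members' median fell to 0.0869. The longest transcript misstates some genes: that of Sod1 has 3970 bases and its principal transcript has 641. With principal transcripts, a definition chosen after the first result was seen, 12 members were higher in SNpc (20.0%, against 14.7%) and 5 in VTA (8.33%, against 16.4%), and the median was 0.00119. The size of the family's median thus depended on this joint correction. In each of the 24 alternatives 11 SNpc calls and 2 VTA calls stood. In SNpc these were Sod2, Gpx4, Prdx5, Prdx2, Glrx3, Glrx2, Glrx5, Gsr, Mgst3, Txnl1 and Txndc15, and in VTA Gpx3 and Txnip. The share of all genes whose calls stood in each alternative was not computed, so these counts describe single members only.

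**Figure D1:**
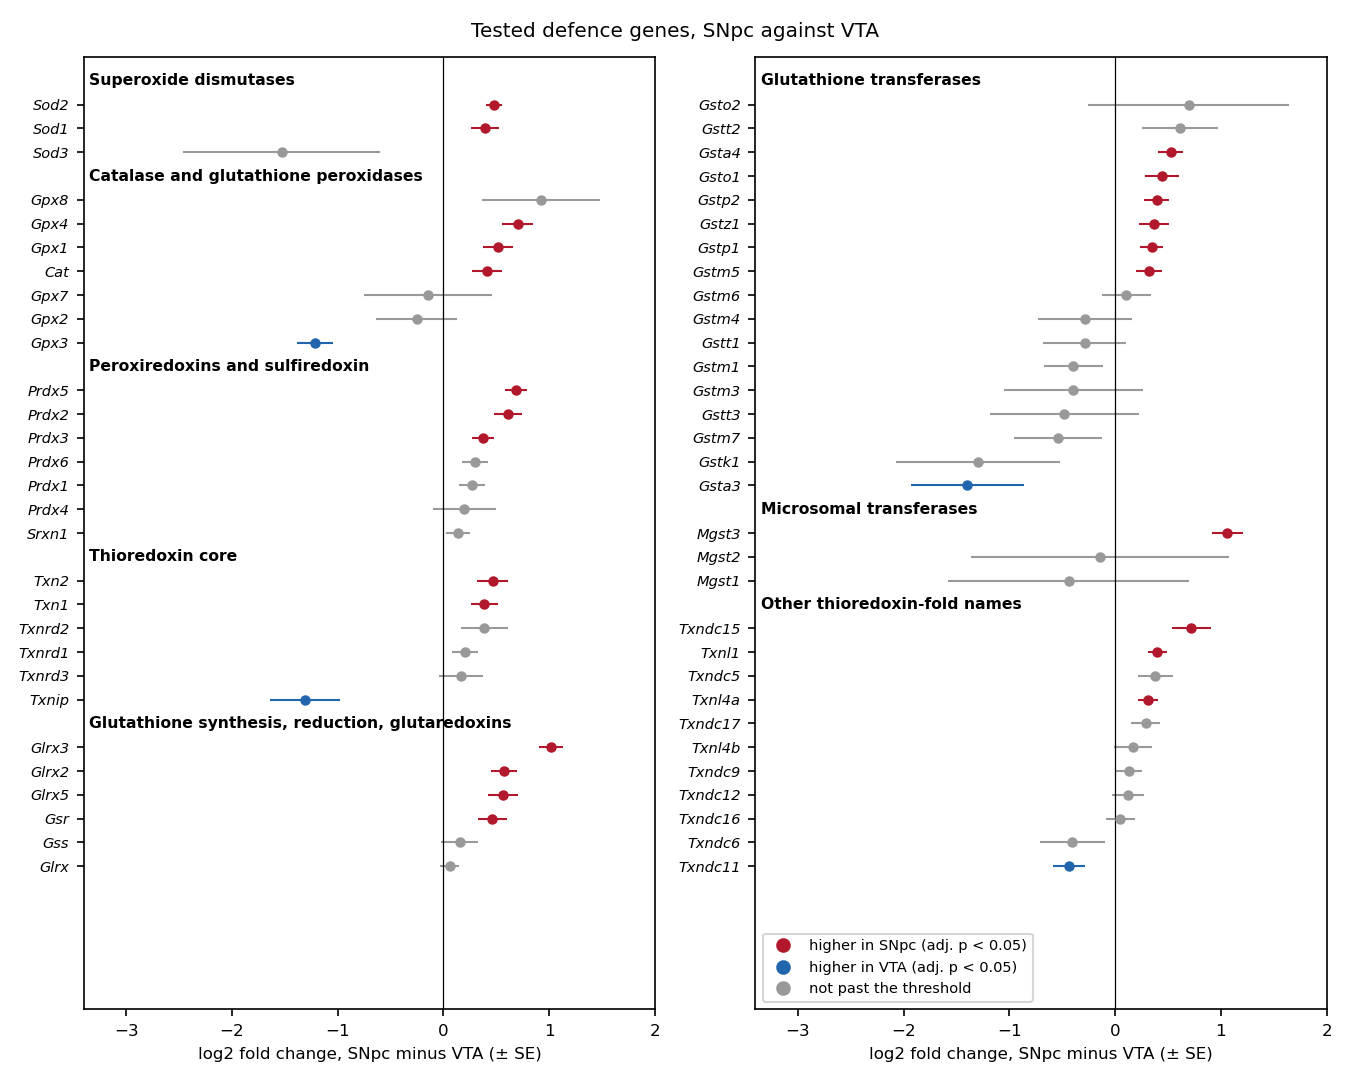
Log2 fold change (SNpc minus VTA, points) with its standard error (bars) for the 60 tested members by role, on a linear axis. Red points passed the test toward SNpc, blue points toward VTA, and grey points did not pass. Most called members lie between 0.3 and 0.7, with Glrx3 and Mgst3 above 1 and Gpx3, Txnip and Gsta3 below -1.

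**Figure D2:**
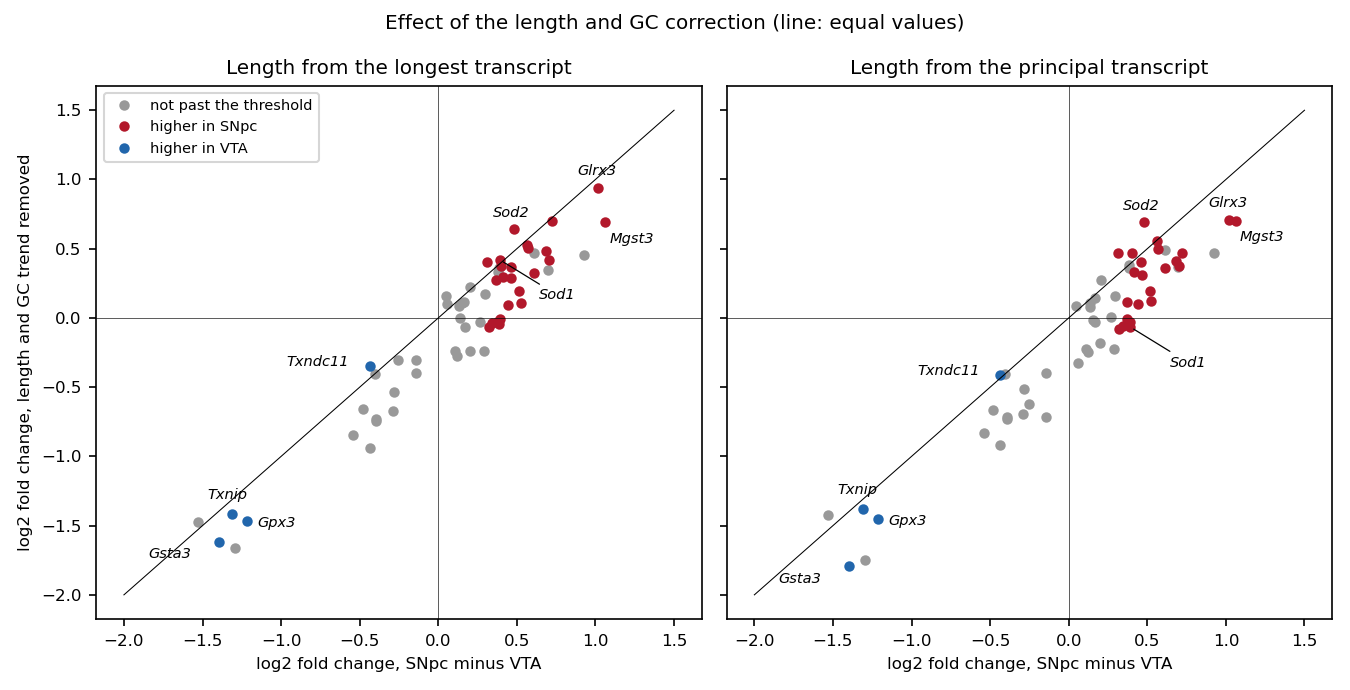
Log2 fold change of each tested member (horizontal axis) against the same value after removal of the length and GC trend (vertical axis), with lengths from the longest transcript (left) and the principal transcript (right). Colours are the calls before the correction, and the line marks equal values. Most members move down, Sod2 moves up, and Sod1 is at 0.42 on the left and -0.07 on the right.

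Both intracellular superoxide dismutases were higher in SNpc. Sod2, the manganese enzyme of the mitochondrial matrix (chr17:13007839-13018119), was at 255, 258, 264, 266 and 248 CPM in SNpc and 183, 189, 196, 179.9 and 178 in VTA. Every SNpc library lay above every VTA library, and the difference was 0.48 ± 0.08 (SE, edgeR adjusted p = 1.37e-04). It was 0.64 after the length and GC correction, and 0.69 with principal transcripts. Sod1, the copper and zinc enzyme of the cytosol (chr16:90220762-90226333), was the most abundant member, at 929, 1032, 950.1, 894 and 737 CPM in SNpc and 550.3, 514, 829.3, 776 and 795 in VTA. SNpc library 6 fell among the VTA libraries, and the difference was 0.39 ± 0.13 (SE, edgeR adjusted p = 0.0278). The Sod1 call ended when SNpc library 1, 2 or 3 or VTA library 1 or 2 was left out (edgeR adjusted p up to 0.0786). It also ended with glial markers as a covariate (0.36, adjusted p = 0.11) and with principal transcripts (-0.07, adjusted p = 0.614). With the longest transcript it held (0.42, adjusted p = 0.0344). Sod3, the secreted enzyme, was near the detection limit at 0.448 ± 0.449 CPM in the SNpc libraries and 1.30 ± 1.32 in those of VTA (mean ± SD of 5) and did not pass, at -1.53 ± 0.93 (SE, edgeR adjusted p = 0.21).

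Among the enzymes that remove peroxides with glutathione, Gpx4 and Gpx1 were higher in SNpc and the secreted Gpx3 was higher in VTA. Gpx4, which reduces lipid hydroperoxides in membranes and restrains ferroptosis (chr10:80047166-80056439), was at 119.5, 130.3, 117, 101 and 81.4 CPM in SNpc and 61.2, 48.1, 76.0, 70.0 and 81.8 in VTA. Only SNpc library 6 fell within the VTA range, and the difference was 0.70 ± 0.15 (SE, edgeR adjusted p = 0.00129). Of the 100-base windows of its transcript, 55.5% also occur in the processed copy Gpx4-ps2, so its count is uncertain. Gpx1, the main cytosolic peroxidase (chr9:108339080-108340342), was at 179.9, 198, 189, 174 and 142 CPM in SNpc and 104, 86.4, 134, 145 and 148 in VTA, with SNpc library 6 below 2 of the VTA libraries. The difference was 0.52 ± 0.14 (SE, edgeR adjusted p = 0.00784), and it did not pass after either length correction (0.20, adjusted p = 0.148, with the longest transcript).

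Gpx3, the secreted peroxidase of plasma and extracellular fluid (chr11:54902854-54910387), ran the other way, at 20.7, 27.6, 19.2, 18.1 and 14.7 CPM in SNpc and 44.6, 35.2, 54.9, 51.9 and 46.2 in VTA. The highest SNpc library lay below the lowest VTA library, and the difference was -1.21 ± 0.17 (SE, edgeR adjusted p = 3.37e-05). Astrocyte markers were also higher in VTA by their sum, with SNpc library 4 inside the VTA range. Gpx3 was at 18.1 CPM in that library, and its adjusted p with the glial covariate was 7.18e-04 (edgeR). The covariate averages astrocyte, oligodendrocyte, precursor and microglial markers. Its value in SNpc library 4 (3.687, mean log2 CPM) exceeded the 2.827 to 3.345 of the VTA libraries. The other SNpc libraries were at 1.73 to 2.181, below every VTA library. The part of astrocyte RNA alone in the Gpx3 difference was not tested. Catalase, the peroxisomal enzyme, was at 48.1 ± 4.48 CPM in the SNpc libraries and 36.1 ± 7.60 in those of VTA (mean ± SD of 5), a difference of 0.41 ± 0.14 (SE, edgeR adjusted p = 0.0287). That call ended without SNpc library 1 or 3 or VTA library 1, 2 or 4 (edgeR adjusted p up to 0.0729). It also ended in the glial fit (0.34) and after both length corrections. Gpx8 (0.93 ± 0.56), Gpx7 (-0.14 ± 0.61), both of the endoplasmic reticulum, and Gpx2 (-0.25 ± 0.39) had wide errors and did not pass.

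**Figure D3:**
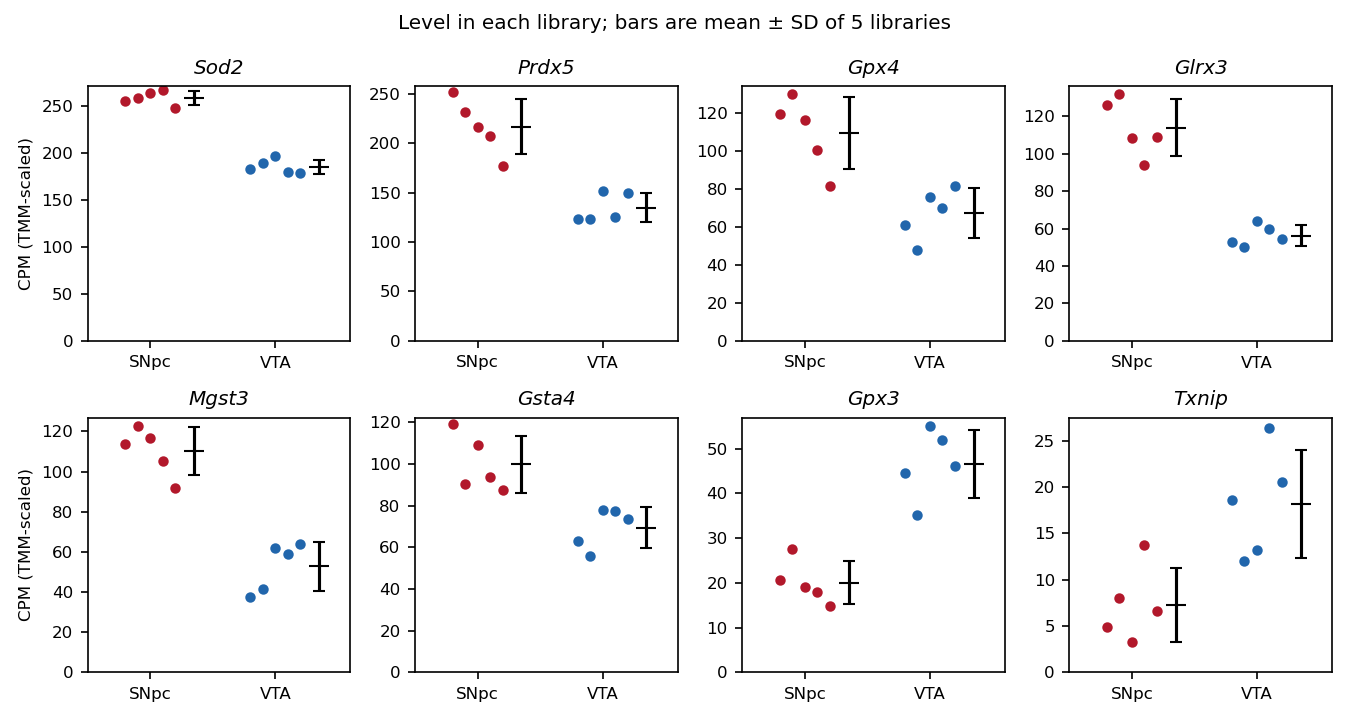
TMM-scaled CPM in each library (points; red SNpc, blue VTA) for 8 members, with the mean and SD of 5 libraries (bars) and axes from 0. The regions are fully separate for Sod2, Prdx5, Glrx3, Mgst3, Gsta4 and Gpx3, while for Gpx4 and Txnip single libraries overlap.

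Peroxiredoxins reduce hydrogen peroxide through a reactive cysteine. Of 7 tested genes including sulfiredoxin, 3 were higher in SNpc, where 17.8% of all genes were. The other 4 did not pass, and the median was 0.30. Prdx5, found in mitochondria, peroxisomes and cytosol (chr19:6906697-6910106), was at 251, 231, 216, 207 and 177 CPM in SNpc and 123, 123, 152, 126 and 149.7 in VTA. The regions did not overlap, and the difference was 0.68 ± 0.11 (SE, edgeR adjusted p = 1.06e-04). Exons of Prdx5 overlap Trmt112 on the opposite strand, 26.7% of its windows are shared with that gene, and the kit does not mark strand. Prdx2, the abundant cytosolic form (chr8:84969622-84974811), was at 249.9, 232, 206, 212 and 164 CPM in SNpc and 119.8, 107, 151, 146 and 172 in VTA. SNpc library 6 lay below VTA library 6, and the difference was 0.61 ± 0.13 (SE, edgeR adjusted p = 0.00168). Prdx2 shares 12.8% of its windows with other genes, including 5.09% with Junb on the opposite strand.

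Prdx3, the mitochondrial form, differed by 0.37 ± 0.10 (SE, edgeR adjusted p = 0.00925). It lost its call in the glial fit (0.33) and after both length corrections (-0.03 with the longest transcript). Prdx6, which uses glutathione rather than thioredoxin, was at 76.1 ± 5.71 CPM in the SNpc libraries and 62.0 ± 10.1 in those of VTA (mean ± SD of 5) and just missed the threshold, at 0.30 ± 0.12 (SE, edgeR adjusted p = 0.0612). It passed with DESeq2, with limma, with all 12 columns and without SNpc library 4 or VTA library 4. Prdx1 (0.27 ± 0.12), the endoplasmic reticulum form Prdx4 (0.20 ± 0.29) and Srxn1, which rescues overoxidised peroxiredoxins (0.13 ± 0.11), did not pass.

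In the thioredoxin system the carriers and the inhibitor had opposite signs. Txn2, the mitochondrial thioredoxin (chr15:77915051-77928994), was at 99.8, 133, 110.5, 106 and 88.5 CPM in SNpc and 57.9, 61.3, 80.1, 94.6 and 96.0 in VTA. SNpc library 6 lay below 2 VTA libraries, and the difference was 0.46 ± 0.15 (SE, edgeR adjusted p = 0.0205). Txn1, the cytosolic thioredoxin (chr4:57943373-57956411), was at 193, 174, 176, 169.6 and 159 CPM in SNpc and 113, 101, 144, 132 and 176 in VTA, with VTA library 6 inside the SNpc range, a difference of 0.39 ± 0.13 (SE, edgeR adjusted p = 0.0232). Both calls were lost in the glial fit, at 0.43 for Txn2 and 0.34 for Txn1. They were also lost after both length corrections, where Txn1 was at -0.05 with the longest transcript. Leaving out SNpc library 2 or VTA library 1 or 2 ended the call of Txn2 (edgeR adjusted p up to 0.0692), and leaving out SNpc library 1 or VTA library 1 or 2 that of Txn1 (up to 0.0628). The reductases that restore thioredoxin did not pass: Txnrd1 was at 0.20 ± 0.13, Txnrd2 at 0.39 ± 0.22 and Txnrd3 at 0.16 ± 0.20 (SE). Txnrd1 passed only without VTA library 4, which stood apart from the rest of its region.

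Txnip, which binds and inhibits thioredoxin and limits glucose uptake (chr3:96557957-96561857), was at 4.95, 8.02, 3.29, 13.7 and 6.63 CPM in SNpc and 18.6, 12.01, 13.2, 26.4 and 20.5 in VTA. SNpc library 4, the library with the most glial RNA among the SNpc libraries, was the only SNpc library within the VTA range. The difference was -1.31 ± 0.33 (SE, edgeR adjusted p = 0.00528), it was -1.60 without SNpc library 4, and it passed with the glial covariate (edgeR adjusted p = 0.0410). Of its windows 15.1% are shared with Gm15441, which overlaps it on the opposite strand.

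**Figure D4:**
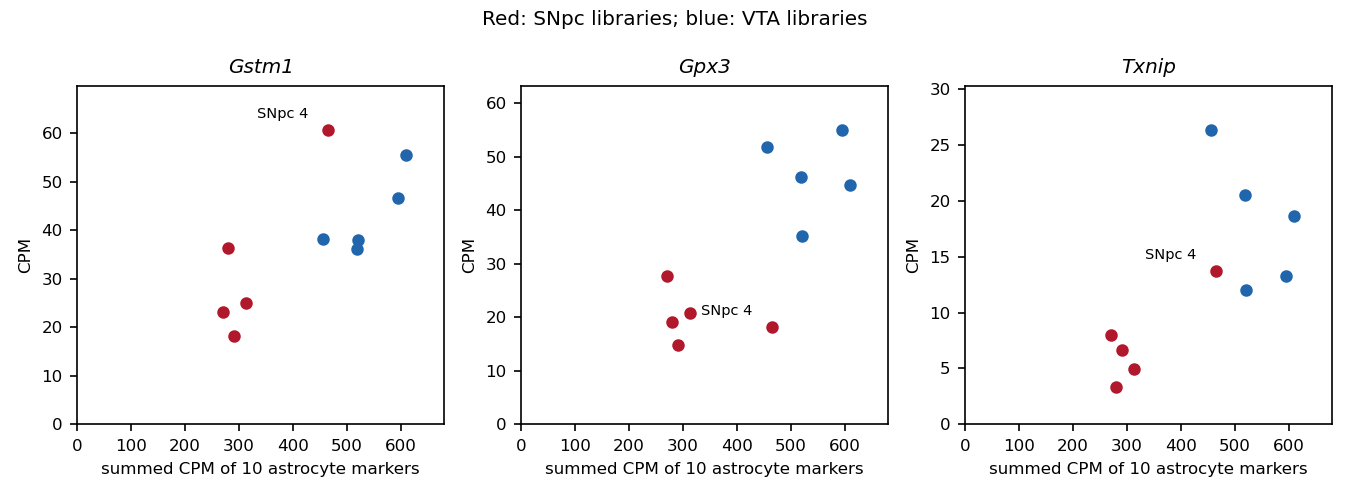
CPM of Gstm1, Gpx3 and Txnip (vertical axes) against the summed CPM of 10 astrocyte markers (horizontal axes) in each library (red SNpc, blue VTA), with SNpc library 4 named. SNpc library 4 has 465.4 CPM of astrocyte markers. It lies with the VTA libraries for Gstm1 and Txnip and with the SNpc libraries for Gpx3. The same library also had the highest oligodendrocyte (1416 CPM) and GABAergic (313.9 CPM) marker sums of all libraries, which are not drawn.

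Among glutaredoxins and the enzymes that make and recycle glutathione, 4 of 6 were higher in SNpc, where 17.8% of all genes were. The other 2 did not pass, and the median was 0.51. Glrx3, a cytosolic glutaredoxin that handles iron-sulfur clusters (chr7:137437573-137469631), was at 126, 132, 108, 93.8 and 109 CPM in SNpc and 53.0, 50.1, 63.8, 60.0 and 54.2 in VTA. The lowest SNpc library was well above the highest VTA library, and the difference was 1.02 ± 0.11 (SE, edgeR adjusted p = 3.77e-06). It was 0.94 after the correction with the longest transcript and 0.71 with the principal one, and 31.0% of its windows are shared with Gm12669. Glrx2, a mitochondrial glutaredoxin (chr1:143739224-143749678), was at 136, 123, 124, 104 and 97.3 CPM in SNpc and 71.9, 65.1, 91.0, 93.8 and 71.9 in VTA, again without overlap, a difference of 0.57 ± 0.12 (SE, edgeR adjusted p = 0.00178). Glrx5, which passes on iron-sulfur clusters in mitochondria, differed by 0.56 ± 0.14 (SE, edgeR adjusted p = 0.00511), and Gsr, which regenerates glutathione with NADPH, by 0.46 ± 0.13 (SE, edgeR adjusted p = 0.0122).

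Glrx, the classical cytosolic glutaredoxin (chr13:75839885-75850151), was at 91.3, 102, 106, 97.9 and 107 CPM in SNpc and 96.7, 91.5, 88.3, 97.9 and 109.8 in VTA. The regions overlapped fully and the difference was 0.06 ± 0.09 (SE, edgeR adjusted p = 0.664). With principal transcripts it was called higher in VTA (-0.33, edgeR adjusted p = 0.0156), in none of the other alternatives. Gss, which completes glutathione synthesis, did not pass either, at 0.15 ± 0.17 (SE).

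Most glutathione transferases did not pass. Of 21 genes 17 were tested, 6 were higher in SNpc, 1 was higher in VTA and 10 did not pass, with a median of 0.11. Of all genes tested, 17.8% were higher in SNpc and 20.4% in VTA. Gsta4, which conjugates the lipid aldehyde 4-hydroxynonenal (chr9:78191966-78209349), was at 119, 90.2, 109, 93.6 and 87.5 CPM in SNpc and 62.8, 55.8, 77.7, 77.5 and 73.5 in VTA. The regions did not overlap and the difference was 0.52 ± 0.12 (SE, edgeR adjusted p = 0.00267), but after the length correction it was 0.11 (adjusted p = 0.429 with the longest transcript). Gstp1 (chr19:4035411-4037912), the most abundant transferase, was at 185, 176, 167, 175 and 156 CPM in SNpc and 129, 105, 148, 138 and 157 in VTA, a difference of 0.34 ± 0.11 (SE, edgeR adjusted p = 0.0167). Its neighbour Gstp2 (chr19:4040288-4042221) was at 82.9, 85.3, 73.8, 76.0 and 66.8 CPM in SNpc and 56.1, 44.5, 64.5, 60.3 and 67.7 in VTA, a difference of 0.39 ± 0.12 (SE, edgeR adjusted p = 0.0165). SNpc library 6 overlapped the VTA range in both genes. They share 52.8% of the windows of Gstp1 and 54.6% of those of Gstp2, so the split of reads between them is uncertain, and both were slightly below 0 after the length corrections. In the glial fit neither passed, at 0.34 for Gstp1 and 0.37 for Gstp2 (edgeR adjusted p = 0.0638 for Gstp1 and 0.0765 for Gstp2).

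Gstm5, a mu-class transferase (chr3:107895854-107898685), was at 118, 123, 137, 121 and 95.0 CPM in SNpc and 79.8, 80.4, 109, 98.6 and 108 in VTA, with SNpc library 6 inside the VTA range. The difference was 0.32 ± 0.12 (SE, edgeR adjusted p = 0.0437), and its call ended without SNpc library 1, 2 or 3 or VTA library 1, 2 or 5 (edgeR adjusted p up to 0.120). Gsto1 (0.44 ± 0.17 (SE, edgeR adjusted p = 0.0428)), which also reduces dehydroascorbate, and Gstz1 (0.37 ± 0.14 (SE, edgeR adjusted p = 0.0439)), an enzyme of tyrosine breakdown, were as close to the threshold. The call of Gsto1 ended without SNpc library 2, 3 or 6 or VTA library 1, 2, 4 or 6 (up to 0.104), and that of Gstz1 without SNpc library 1, 2 or 3 or VTA library 1, 2, 5 or 6 (up to 0.105). Gsto1, Gstm5 and Gstz1 all lost their call in the glial fit and after both length corrections. In the glial fit the differences were 0.30 for Gsto1, 0.33 for Gstm5 and 0.44 for Gstz1.

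Gsta3, an alpha-class transferase (chr1:21240565-21265575), was the only transferase called higher in VTA, at low levels of 0.413, 0.456, 0.970, 1.14 and 1.93 CPM in SNpc and 2.18, 2.47, 3.19, 3.27 and 1.82 in VTA. SNpc library 6 overlapped VTA library 6, the difference was -1.40 ± 0.53 (SE, edgeR adjusted p = 0.0481), and leaving out any library other than SNpc library 6 ended the call (edgeR adjusted p up to 0.107), as did the glial covariate. Gstm1, a transferase that is abundant in astrocytes, was at 24.9, 23.2, 36.4, 60.6 and 18.1 CPM in SNpc and 55.6, 38.0, 46.5, 38.3 and 36.1 in VTA. SNpc library 4 was the highest of all 10 libraries, and the difference was -0.39 ± 0.28 (SE, edgeR adjusted p = 0.29). Without that library it was -0.68 (edgeR adjusted p = 0.0114), and with the glial covariate it was 0.08 (adjusted p = 0.806). The covariate pools several glial cell types, so the part of astrocyte RNA alone was not tested for any transferase.

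Of the microsomal transferases, membrane proteins that use glutathione on lipids, only Mgst3 was well expressed. Mgst3 (chr1:167371966-167393841) was at 114, 123, 117, 105 and 92.1 CPM in SNpc and 37.4, 41.7, 61.7, 59.1 and 64.0 in VTA. The lowest SNpc library exceeded the highest VTA library, and the difference was 1.06 ± 0.15 (SE, edgeR adjusted p = 3.36e-05), or 0.69 after the correction with the longest transcript. None of its windows occurs in another gene. Mgst1 (chr6:138140527-138156755) was at 0.827, 0, 0.0783, 0.0761 and 0.501 CPM in SNpc and 0.970, 0.316, 0.489, 0.215 and 0.0147 in VTA, including an SNpc library with no count, and its difference was -0.44 ± 1.14 (SE, edgeR adjusted p = 0.793). Mgst2 was as low, at 0.293 ± 0.370 CPM in the SNpc libraries and 0.326 ± 0.314 in those of VTA (mean ± SD of 5).

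Other genes with Txn names carry a thioredoxin fold but act largely elsewhere. Of the 11 tested 3 were higher in SNpc and 1 in VTA, where 17.8% and 20.4% of all genes were. Txnl1, which associates with the proteasome, was at 210.1, 184, 187, 175 and 197 CPM in SNpc and 146, 137, 163, 136 and 142 in VTA. The regions did not overlap, and the difference was 0.40 ± 0.09 (SE, edgeR adjusted p = 0.00198). Txndc15, a membrane protein, was at 32.5, 34.6, 29.4, 36.0 and 40.4 CPM in SNpc and 20.2, 11.5, 23.1, 24.0 and 26.0 in VTA, a difference of 0.72 ± 0.18 (SE, edgeR adjusted p = 0.00538) without overlap. Txnl4a, a spliceosome component, was at 94.7, 108, 97.0, 104 and 87.4 CPM in SNpc and 75.5, 77.9, 74.4, 87.2 and 80.7 in VTA, a difference of 0.31 ± 0.09 (SE, edgeR adjusted p = 0.0155) without overlap. Its call ended with the replicate block (edgeR adjusted p = 0.0727).

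Txndc11, an endoplasmic reticulum protein (chr16:11074911-11134645), was at 18.7, 33.1, 32.2, 28.0 and 31.0 CPM in SNpc and 37.0, 44.1, 35.4, 37.4 and 39.5 in VTA. No SNpc library reached the lowest VTA library, and the difference was -0.43 ± 0.15 (SE, edgeR adjusted p = 0.0304). The call ended without SNpc library 1 or 4 or VTA library 2 or 6 (edgeR adjusted p up to 0.0888), in the glial fit and with the longest transcript, and held with principal transcripts (adjusted p = 0.0391). Txndc5 (0.38 ± 0.17), a protein disulfide isomerase, and Txndc17 (0.29 ± 0.14) did not pass, nor did Txndc9, Txndc12, Txndc16, Txnl4b and Txndc6, which ran from -0.40 to 0.17.

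The 9 members that were not tested had few reads. Gsta1 had no count in any library. Gpx5, an epididymal peroxidase, Gsta2, Gstt4 and Txndc8 had at most 21 counts in a library and no count in most libraries. Gpx6 reached 40 counts, Txndc3 51, Txndc2 61 and Gstm2 137. A further 6 members were tested with a mean below 1 CPM, and their standard errors were too wide to show a 2-fold difference.

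By compartment, a grouping made with the results known, 6 of the 7 mitochondrial members were called higher in SNpc (Sod2, Prdx3, Prdx5, Txn2, Glrx2 and Glrx5), with a median of 0.48, and Txnrd2 was not. The share called higher in SNpc was 17.8% over all genes and 27.0% over those at 10 CPM or more, and since the grouping was made with the results known the count is a description. Of the 6 calls, those of Sod2, Prdx5, Glrx2 and Glrx5 stood in each alternative. The 7 were chosen by hand. Prdx5, found also outside mitochondria, was kept, and the transferase Gstk1, which did not pass (-1.30 ± 0.77 (SE)), was left out. So were Gpx1, Gpx4 and Gsr, which were called higher in SNpc. Of 7 members placed in the endoplasmic reticulum Txndc11 was called in VTA, where 20.4% of all genes were, and the other 6 did not pass. The median of the 7 was 0.12. This group leaves out the microsomal transferases, of which Mgst3 was called higher in SNpc at 1.06 and Mgst1 and Mgst2 did not pass. It also leaves out the membrane protein Txndc15, which was called higher in SNpc at 0.72. Of the 7 selenoproteins, which carry selenocysteine in the active site, Gpx1 and Gpx4 were higher in SNpc, Gpx3 was higher in VTA, and Gpx2 and the 3 thioredoxin reductases did not pass.

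Per kilobase of principal transcript, the mean level over the 10 libraries was 1249 CPM for Sod1, 187 for Gstp1, 146 for Txn1, 140.0 for Gpx1 and 139 for Prdx5, the 5 highest. Sod1 headed that order also with its longest transcript, at 201.7 CPM per kilobase. Among other members Gstm5 was at 113, Prdx2 at 109, Gpx4 at 92.4, Mgst3 at 74.3, Glrx3 at 50.5 and Sod2 at 37.8, while Gpx3 was at 20.9 and Txnip at 4.55.

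Matches to a stress-response motif occurred in genes called in either direction. RefSeq promoters of 300 bases (250 before and 50 after the start) were at hand for 62 of the 69 members. The core of the antioxidant response element, through which the factor Nrf2 acts, was searched as TGACNNNGC on both strands. It was found in 12 of the 62 members (19.4%), and in 14.0% of 27025 genes. Among the 11 of these that were tested, 2 were higher in SNpc, 2 were higher in VTA and 7 did not pass. The matches of the 4 called genes and of Prdx1, Srxn1 and Txnrd1, which did not pass, are given in the direction of the gene with the match in capitals.
Gstm5 (higher in SNpc), chr3:107895802-107895830: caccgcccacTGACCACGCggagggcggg
Sod1 (higher in SNpc), chr16:90220696-90220724: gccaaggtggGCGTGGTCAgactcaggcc
Gsta3 (higher in VTA), chr1:21240454-21240482: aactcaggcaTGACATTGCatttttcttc
Txndc11 (higher in VTA), chr16:11134755-11134782: gtggaaggcTGACGCGGCcgcgagtgct
Prdx1 (not called), chr4:116685456-116685484: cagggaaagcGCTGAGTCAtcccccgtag
Srxn1 (not called), chr2:152105542-152105570: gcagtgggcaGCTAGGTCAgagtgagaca
Txnrd1 (not called), chr10:82859104-82859132: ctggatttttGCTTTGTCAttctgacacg
The GC box was found in 67.7% of the members' promoters and in 38.2% of those of the 27025 genes, a set wider than the 15685 tested. The share among tested genes alone was not computed. Among the promoters printed above it was absent from Glrx3, present 2 times in Mgst3 and present 1 time each in Gpx3 and Txnip. The carbohydrate response element, through which the factor ChREBP acts, was found in 15 genes (0.0555%), Txnip being the only member, 85 bases before its start. A match of letters is no evidence of binding.

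Genes that supply or use the same pathway, were taken from a list written from their known roles. Of 52 genes 51 were tested, 16 were higher in SNpc (31.4%, against the 17.8% of all genes) and 7 were higher in VTA (13.7%, against 20.4%), with a median of 0.18. After the length and GC corrections 9 were higher in SNpc (17.6%, against 15.1% of all genes with the longest transcript) and 3 in VTA (5.88%, against 16.7%). With the glial covariate 9 were higher in SNpc (17.6%, against 10.9% of all genes) and 4 in VTA (7.84%, against 14.8%). For glutathione precursors and turnover, 3 of 13 were higher in SNpc and 2 in VTA. Ggt7, of the family that breaks down extracellular glutathione, was at 23.3 ± 2.84 CPM in the SNpc libraries and 15.1 ± 2.71 in those of VTA (mean ± SD of 5), a difference of 0.63 ± 0.16 (SE, edgeR adjusted p = 0.00599). Slc3a2, the heavy chain of the cystine transporter, differed by 0.59 ± 0.15 (SE, edgeR adjusted p = 0.00609). Both calls were lost in the glial fit and with the replicate block. Slc7a11, the light chain of that transporter, was on the VTA side at -0.82 ± 0.28 (SE, edgeR adjusted p = 0.0297). VTA library 1 alone was at 60.5 CPM and the other VTA libraries at 20.04 to 23.8, and without it the difference was -0.36 (edgeR adjusted p = 0.0834). The call of Slc7a11 also ended without SNpc library 1, 2, 3 or 6, with limma, with the replicate block, in the glial fit and after the length and GC corrections. Abcc1, which exports glutathione conjugates, was higher in VTA at -0.98 ± 0.28 (SE, edgeR adjusted p = 0.0117), a call lost after the same corrections.

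NADPH supply had 3 of 13 genes higher in SNpc, where 17.8% of all genes were, and 10 that did not pass. The smallest p-values were those of the mitochondrial malic enzyme Me3, at 0.75 ± 0.14 (SE, edgeR adjusted p = 4.98e-04), and of G6pdx. G6pdx, the entry enzyme of the pentose phosphate pathway, was at 0.42 ± 0.11 (SE, edgeR adjusted p = 0.00764). Other thiol and peroxide partners had 7 of 16 higher in SNpc and 3 in VTA, where 17.8% and 20.4% of all genes were. Glo1, which removes methylglyoxal with glutathione, was at 145 ± 11.6 CPM in the SNpc libraries and 91.6 ± 13.1 in those of VTA (mean ± SD of 5), a difference of 0.66 ± 0.11 (SE, edgeR adjusted p = 1.59e-04). Msrb1, a methionine sulfoxide reductase, differed by 0.85 ± 0.17 (SE, edgeR adjusted p = 8.25e-04). Of the sestrins, stress proteins linked to peroxiredoxin repair, Sesn3 (-0.63 ± 0.10 (SE, edgeR adjusted p = 1.36e-04)) and Sesn1 (-0.48 ± 0.13 (SE, edgeR adjusted p = 0.01)) were higher in VTA. Sesn3 was not called after the length corrections, and Sesn1 was not called with the replicate block.

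The machinery that makes selenoproteins had 3 of 9 genes higher in SNpc and 2 in VTA, where 17.8% and 20.4% of all genes were. Sephs2, the enzyme that makes selenophosphate, differed by 0.50 ± 0.16 (SE, edgeR adjusted p = 0.0192), and Trnau1ap, which binds the selenocysteine tRNA, by 0.81 ± 0.26 (SE, edgeR adjusted p = 0.0194). Both calls were lost after the length corrections and with the replicate block. The call of Sephs2 also ended without SNpc library 1 or VTA library 2, and that of Trnau1ap without SNpc library 3. Sephs1, the paralog of Sephs2, was higher in VTA at 25.2 ± 4.65 CPM in the SNpc libraries and 49.2 ± 6.99 in those of VTA (mean ± SD of 5), a difference of -0.97 ± 0.15 (SE, edgeR adjusted p = 9.34e-05) that stood in each alternative. Secisbp2l, a relative of the factor that reads selenocysteine codons, differed by -0.31 ± 0.11 (SE, edgeR adjusted p = 0.03). Its call ended without SNpc library 1, 2 or 6 or VTA library 2, 5 or 6. It also ended with the replicate block, in the glial fit and after the length and GC corrections.

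**Figure D5:**
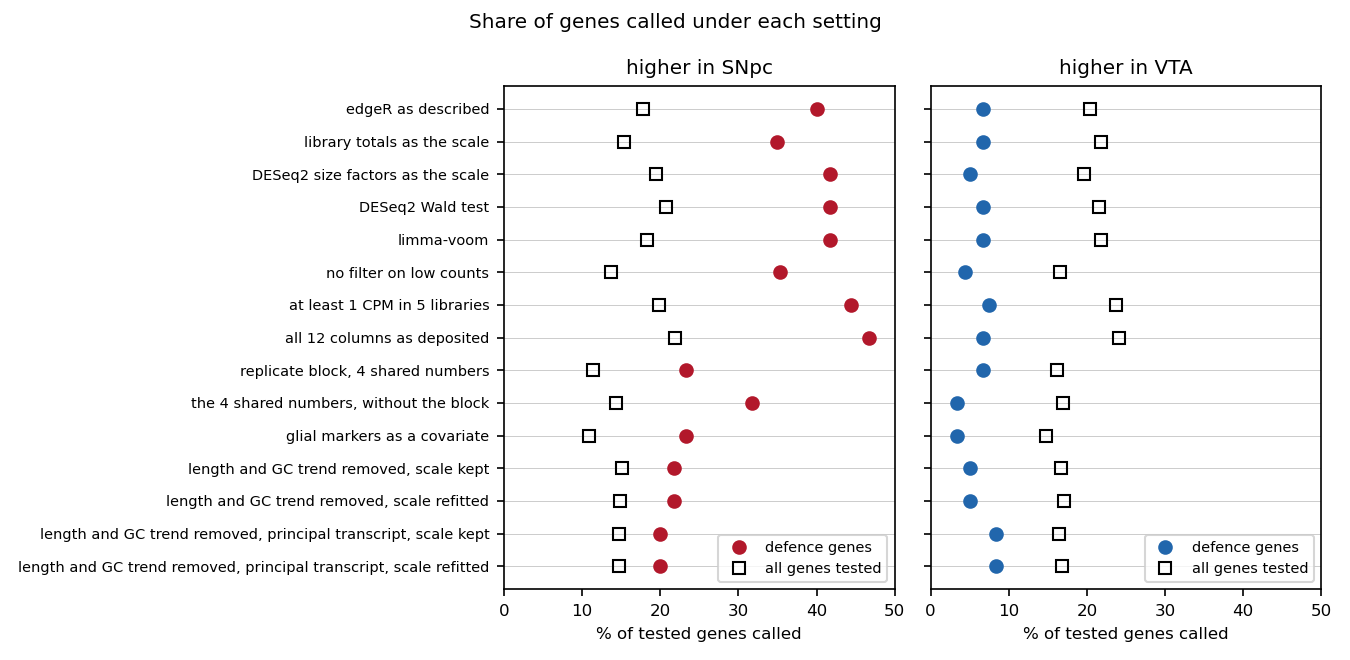
Percent of tested genes called higher in SNpc (left) or in VTA (right) under each setting, for the defence genes (filled circles) and all genes tested (open squares). The defence genes are above all genes in SNpc and below them in VTA in every setting drawn, and the gap in SNpc is narrowest with the length and GC trend removed, at 20.0% against 14.7% with principal transcripts.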

How the data were processed

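The authors deposited raw read counts per gene, not normalized, in a table of 12 columns. Per the labels' protocols, cDNA was amplified from 1 ng RNA with a NuGEN Ovation V2 kit, which does not mark strand, and sequenced as 100 bp single reads on an Illumina HiSeq instrument. The submitters' processing notes name TopHat2 2.0.8 and mm10. How reads were counted, with or without strand, and which lane and day each library had is not given in the sources used here. SNpc columns 4 and 5 held identical counts, as did VTA columns 2 and 3, with 0 genes at different counts, less than the sampling noise, while other pairs of a region had a chi-square per gene of 46.8 to 162. The duplicates were dropped.

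Genes were filtered by filterByExpr and tested with edgeR 4.0.16 in R 4.3.3 (TMM, robust quasi-likelihood F test, no covariate), with Benjamini-Hochberg adjustment over all 15685 genes and calls under 0.05. The script was tested on simulated data. Standard errors are the log2 fold change divided by the square root of F. Alternatives were other scales and filters, DESeq2 1.42.0, limma 3.58.1, all 12 columns, a replicate block, a covariate of glial markers, a length and GC correction, and each library left out. The covariate was the mean log2 CPM of all astrocyte, oligodendrocyte, oligodendrocyte precursor and microglial markers in each library. The correction fitted natural splines with 5 degrees of freedom to each library's deviations in log2 CPM. It was planned without naming a transcript, was first run with the longest GENCODE M21 transcript, and was repeated with the APPRIS principal transcript after the first values had been seen. The results with both are given. Shared sequence and levels per kilobase use the principal transcript. Lengths were found for 68 of the 69 members, and 23008 identifiers matched RefSeq (GRCm38.p6), which gave the coordinates and promoters.

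The members, the gene lists and the compartments were chosen with earlier results of these data known. Values by library are given for the 2 most abundant members of each role, the 2 called with the smallest p and the called one with the largest change in each direction, and in the other lists for the 2 called with the smallest p per direction as means. Gstm1 was named by library after its values were seen. Lists of markers of 9 cell types were compared by two-sided exact permutation tests, for which the smallest possible p is 0.00794.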

Additional observations from a re-analysis of the deposited data

Results flagged for a closer look

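In 138 groups of 5 libraries examined, 8 had a library far from the other 4 of its region by Dixon's test, where chance flags about 1 in 20 groups. In SNpc library 4, Mgst2 was at 0.929 CPM against 0.239 in the next library, astrocyte markers summed to 465.4 CPM against 312.5, oligodendrocyte markers to 1416 against 504.0, GABAergic markers to 313.9 against 139.2 and glutamatergic markers to 87.7 against 37.1. In SNpc library 6, Txnl4b was lowest, at 15.6 CPM against 22.04 in the next. In VTA library 4, Txnrd1 was highest, at 55.3 CPM against 40.2. In VTA library 1, vascular markers summed to 105.8 CPM against 20.9. The part of these libraries in the members' differences is given by the values without each of them.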

How the results depend on the processing

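Members higher in SNpc numbered 14 with the replicate block, 14 with the glial covariate, 13 with the length and GC trend removed (longest transcript, scale kept or refitted) and 12 with principal transcripts, and 17 to 26 with a library left out. Members higher in VTA numbered 2 with the glial covariate, 2 in the libraries of the 4 shared numbers without the block, and 2 to 4 with a library left out, being 2 without SNpc library 1, VTA library 2 or VTA library 6. With the glial covariate fewer members were called, but their median was 0.31, against 0.292 without it. The members' median was 0.0869 and 0.0759 (longest transcript, scale kept and refitted), 0.00119 and -0.00522 (principal transcript), and 0.219 to 0.347 with a library left out. The sign of the median thus turned with principal transcripts and a refitted scale. All genes higher in SNpc numbered 1789 with the block, 1713 with the glial covariate and 2284 to 3317 with a library left out, and those higher in VTA 2790 to 3193. With length removed (longest transcript, scale kept, then refitted), the sign turned for Gstp2 (-0.00798, -0.0178), Gstp1 (-0.0368, -0.0465), Gstm5 (-0.0671, -0.0766), Prdx3 (-0.0314, -0.0414) and Txn1 (-0.0458, -0.0541). With principal transcripts it turned for Gstp2 (-0.0268, -0.0340), Gstp1 (-0.0554, -0.0625), Gstm5 (-0.0802, -0.0868), Prdx3 (-0.00462, -0.0119), Sod1 (-0.0652, -0.0712) and Txn1 (-0.0321, -0.0374). The principal-transcript fits and the 4 shared numbers without the block were added after seeing the data. The cause of these changes was not tested. Whether replicate numbers pair the libraries is not known. Same-numbered libraries correlated at 0.032, -0.072, -0.015 and 0.044 in their deviations, and libraries of different numbers at -0.12 to 0.104. Such values cannot exclude a pairing. SNpc columns 4 and 5 were identical, as were VTA columns 2 and 3, so the numbers of those libraries, also in the block, are uncertain. The replicate block on 4 shared numbers kept 14 of the 24 SNpc calls and 3 of the 4 VTA calls, while the same libraries without the block kept 19 and 2. The calls that ended with the block were those of Sod1, Cat, Prdx3, Txn1, Gstp1, Gstp2, Gsto1, Gstm5, Gstz1, Txnl4a and Gsta3. Of 1434 values of single members under 24 alternatives, 1285 kept their side of the threshold, 110 lost a call, 17 gained one, and 22 of called members turned sign. Among the values counted as kept or gained, 57 of members without a call also turned sign. Depth limits the 6 tested members under 1 CPM.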

Other observations

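Genes with at least 10 counts in 1 library and no count in the other 9 numbered 122 in VTA library 2 and 65 in VTA library 1, against 2 to 19 in each of the other libraries. The 122 include the defence genes Gstt4 and Txndc8.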
